A study of Mus musculus with 27 samples.

Results

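The 9 genes Fos, Fosb, Fosl1, Fosl2, Jun, Junb, Jund, Atf3 and Batf3 encode proteins of the AP-1 family, and their transcript levels were followed in mK4 cells with and without Runx1 or the Zeb genes. They were taken by gene symbol from a table of 24953 genes in which each of the 9 symbols had 1 row. The values are TPM, transcript counts scaled to a common library total, a level corrected for gene length and library size. A second deposited TPM table holds the control and Runx1KO libraries only, and it differs from the first by a factor that is not the same for each gene (0.537 to 0.542 for Fosl2 and 1.32 to 1.36 for Jund in control), so levels of different genes can be set side by side only within 1 table. Values are from the 9-library table unless the other is named. mK4 is a mouse cell line derived from the metanephric mesenchyme, the embryonic tissue that gives rise to the nephron. RNA-seq was made from unedited control mK4 cells, from Runx1KO cells, in which CRISPR removed the Runx1 exon holding the start codon, and from ZebDKO cells, in which CRISPR removed 1 exon each of Zeb1 and Zeb2, with 3 libraries per group from replicate cultures. All cells were detached with trypsin before RNA was taken. The ZebDKO libraries are listed as a block apart from the other RNA-seq libraries. Whether all 9 were grown and sequenced together is not stated, so a difference between runs cannot be told apart from ZebDKO. ATAC-seq and ChIP-seq for Runx1 and Runx2 were made in control and Runx1KO cells, and no such data of ZebDKO cells were analysed here. The knockout cells are clonal, and the sources used here do not say how many clones stand behind the 3 libraries of a group, so clone and genotype cannot be told apart and p-values measure the spread between libraries of a group only.

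AP-1 is a dimer of basic leucine zipper (bZIP) proteins that binds the sequence TGACTCA. Jun proteins pair with each other or with Fos proteins, while Fos proteins need a Jun partner, and Atf3 and Batf3 pair with Jun proteins. Fos, Fosb, Jun, Junb and Atf3 are immediate-early genes, whose transcription rises within minutes of growth factors, stress or cell handling. Fosl1 and Fosl2 lack the strong activation domain of Fos and are kept up for longer under sustained signalling, and Junb and Jund activate less strongly than Jun in many settings.

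The libraries were alike within groups, with a Pearson r of log2(TPM + 1) between 0.994 and 0.996 over 9 pairs, against 0.912 to 0.927 over 27 pairs from different groups. Between 12541 and 12697 genes reached 1 TPM per library. The whole-gene level did not show the edits of Runx1 and Zeb1. Runx1 stood at 17.4 ± 1.61 TPM in control, 29.6 ± 0.987 in Runx1KO and 10.1 ± 0.608 in ZebDKO (SD, n = 3 each), and Zeb1 at 14.97 ± 0.709, 0.167 ± 0.0577 and 16.1 ± 1.10 TPM. A whole-gene sum includes exons outside the removed ones and so checks neither deletion. Zeb2 stood at 5.2 ± 0.3 TPM in control, 0.2 in each Runx1KO library and 1.7 ± 0.1 in ZebDKO. Of 13 metanephric mesenchyme markers, 8, 6 and 8 reached 1 TPM in every control, Runx1KO and ZebDKO library, with a summed level of 3513.7 to 3649.1, 3561.0 to 3687.7 and 2750.1 to 2816.3 TPM that was mostly Vim. The nephron progenitor marker Six2 was at or near 0 throughout. The summed level of 8 epithelial markers was 2.8 to 5 TPM in control, 2660.5 to 2742.6 in Runx1KO and 1150.3 to 1209.5 in ZebDKO, mostly from the keratin gene Krt8. Not all 8 rose. Epcam was 0 in every control and Runx1KO library and 27.9 ± 1.10 TPM in ZebDKO. Cdh1 stayed at 0.1 TPM in control, 0.1 to 0.3 in Runx1KO and 0.4 to 0.6 in ZebDKO. The epithelial sum differed between all 3 groups, and its part in the group differences below was not tested. Ptprc and Cd3e, which mark blood cells, and Kdr and Tek, which mark endothelium, were at or below 0.1 TPM in every library.

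AP-1 transcripts were abundant in all 3 groups. The 9 genes together took 5686 ± 127 TPM in control, which was 0.569% of all transcripts in the table. They took 8560.5 ± 200 TPM (0.856%) in Runx1KO and 9683 ± 205 TPM (0.968%) in ZebDKO. In the 9-library table the order by level in control cells was Junb, Jun, Fosl1, Jund, Atf3, Fos, Fosl2, Fosb and Batf3, and no neighbours in that order overlapped in their 3 libraries. In Runx1KO the order was Junb, Fos, Jun, Atf3, then Jund, Fosb and Fosl1, whose libraries overlapped, then Fosl2 and Batf3. In ZebDKO Junb and Fosl1 were followed by Atf3, Fos and Jund, then by Jun and Fosb, whose libraries overlapped, and by Fosl2 and Batf3. The order depends on the table. In the 6-library table it was Junb, Jund, Jun, Fosl1, Atf3, Fosb, Fos, Fosl2 and Batf3 in control, where Atf3 overlapped Fosb and Fosb overlapped Fos. There it was Junb, Jund, Fos, Fosb, Jun, Atf3, Fosl1, Fosl2 and Batf3 in Runx1KO, where Jund overlapped Fos and Fos overlapped Fosb. Junb was the highest and Fosl2 the lowest but for Batf3 in both groups of that table.

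**Figure D1:**
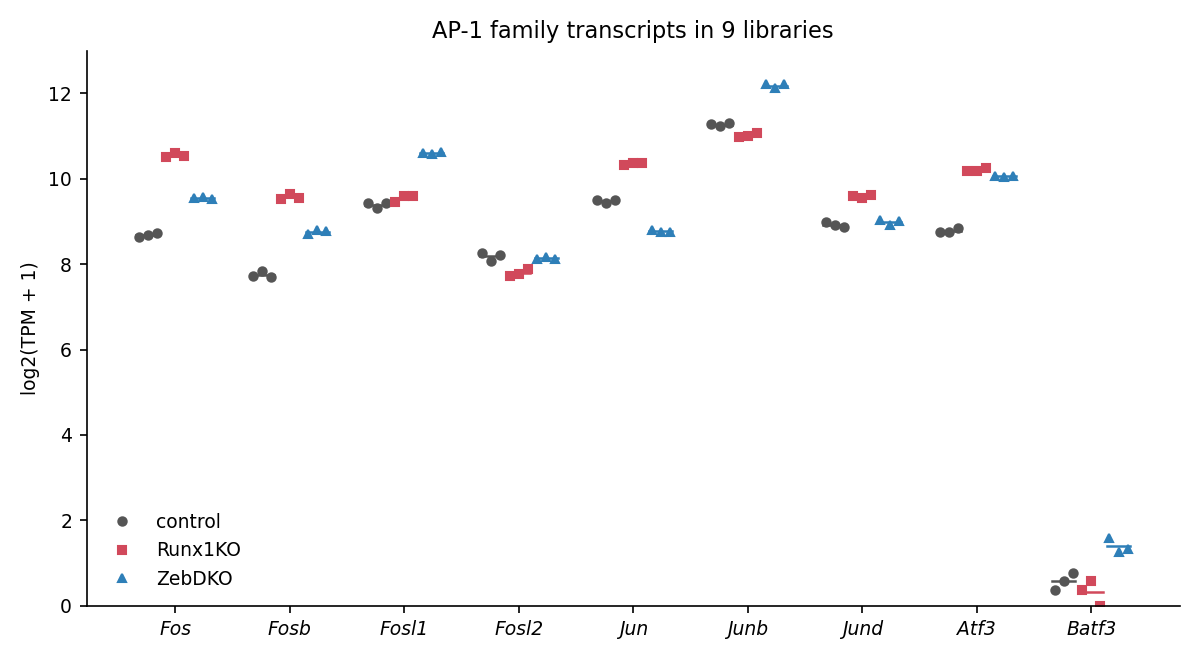
Level of each AP-1 gene in TPM (vertical, log axis) in every library of control, Runx1KO and ZebDKO cells; points are libraries and bars are group means. Fos lies near 400 TPM in control, 1500 in Runx1KO and 750 in ZebDKO, and Junb is the highest member in each group.

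Fos, the founding member and the partner most rapidly induced by growth factors, had 400.1, 412.7 and 421.7 TPM in the control libraries. It had 1467.3, 1548.6 and 1485.1 TPM in Runx1KO and 754.4, 762.6 and 738.9 TPM in ZebDKO. The 3 groups did not overlap, and both knockouts were above control, with Runx1KO the higher.

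Fosb, its closest relative, had 209.6, 228.8 and 207.6 TPM in control, 733.1, 800.8 and 744.9 in Runx1KO and 415.5, 447.7 and 436.2 in ZebDKO. The groups again did not overlap and stood in the same order as for Fos. The ratio of Fos to Fosb was 1.91 ± 0.114 in control, 1.98 ± 0.0370 in Runx1KO and 1.74 ± 0.0677 in ZebDKO (SD, n = 3). In the 6-library table it was 1.001 ± 0.0637 in control and 1.04 ± 0.0244 in Runx1KO, so both genes stood near the same level there, and the ratio differed little between these groups in either table.

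Fosl1, which encodes Fra-1, had 687.2, 635.3 and 685.5 TPM in control, 704.6, 776.9 and 770.2 in Runx1KO and 1556.4, 1530.8 and 1592.1 in ZebDKO. The ZebDKO libraries stood far above all others, and the Runx1KO libraries lay just above the highest control. In the mm9 annotation 1162 of the 1707 exon bases of Fosl1 (68.1%) are shared with Ccdc85b on the opposite strand, and the sources used here do not say whether reads were counted by strand. Ccdc85b moved in parallel, at 123.2 to 132.4 TPM in control, 136.7 to 149.7 in Runx1KO and 307.9 to 326.5 in ZebDKO, so the reads of this pair cannot be told apart.

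Fosl2, which encodes Fra-2, had 304.8, 268.3 and 295.2 TPM in control, 210.2, 216.3 and 235.5 in Runx1KO and 278.0, 287.6 and 278.0 in ZebDKO. The Runx1KO libraries were the lowest, and the control and ZebDKO libraries overlapped.

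Jun, the prototype of the Jun proteins, had 722.5, 691.8 and 721.9 TPM in control, 1286.3, 1318.1 and 1314.1 in Runx1KO and 445.8, 430.8 and 428.5 in ZebDKO. Control lay between the knockouts, with Runx1KO above, ZebDKO below and no overlap.

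Junb had 2482.8, 2394.1 and 2515.8 TPM in control, 2011.3, 2049.1 and 2158.3 in Runx1KO and 4740.0, 4445.8 and 4754.9 in ZebDKO. It was the highest of the 9 in every library and ranked between 3 and 26 among all 24953 genes. ZebDKO was the highest group and Runx1KO the lowest, the opposite of Jun, with no overlap.

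Jund, the Jun gene least tied to acute stimulation, had 508.9, 480.0 and 468.1 TPM in control, 768.9, 750.9 and 791.2 in Runx1KO and 523.5, 484.8 and 511.8 in ZebDKO. Runx1KO stood above both other groups, which overlapped. Of the 2878 exon bases of Jund, 543 (18.9%) are shared with Gm11175 on the opposite strand.

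Atf3, a stress-induced bZIP factor that can repress as a homodimer, had 428.5, 428.8 and 457.9 TPM in control, 1155.7, 1158.8 and 1224.4 in Runx1KO and 1066.0, 1055.8 and 1078.1 in ZebDKO. Both knockouts were far above control, and Runx1KO lay above ZebDKO by a small margin without overlap. Batf3, best known for its role in dendritic cells, had 0.3, 0.5 and 0.7 TPM in control, 0.3, 0.5 and 0 in Runx1KO and 2.0, 1.4 and 1.5 in ZebDKO. It was at the floor of detection in control and Runx1KO, and low but separate in ZebDKO.

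Loss of Runx1 was first compared with control, which asks how AP-1 transcripts change when Runx1 is removed. The test was limma on log2(TPM + 1), with Benjamini-Hochberg adjustment over the 13067 genes that reached 1 TPM in at least 3 of the 6 libraries. Past a 2-fold change and an adjusted p of 0.05, 3 of the 8 tested members were higher and 0 were lower, against 7.91% higher and 5.1% lower among all genes tested. Fos rose by 1.86 (log2 scale, SE 0.0307, 95% interval 1.79 to 1.94, adjusted p = 1.72e-08), which is 3.64-fold. Fosb rose by 1.81 (SE 0.0492, adjusted p = 1.47e-07, 3.52-fold) and Atf3 by 1.43 (SE 0.0368, adjusted p = 1.14e-07, 2.69-fold). Jun and Junb, the other immediate-early genes of the 9, were not past 2-fold.

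Changes below 2-fold also passed the adjusted p, as they did for most genes here. In all, 6 of the 8 were higher and 2 lower by adjusted p alone, against 30.4% higher and 40.1% lower of all genes. All 8 had libraries that did not overlap between the groups, 6 higher and 2 lower, against 31.7% and 42% of all genes. Jun rose by 0.87 (SE 0.0255, adjusted p = 2.07e-07) and Jund by 0.66 (SE 0.0370, adjusted p = 4.98e-06). Fosl2 fell by 0.39 on the log2 scale (SE 0.0598, adjusted p = 0.000891) and Junb by 0.25 (SE 0.0335, adjusted p = 0.000447). Fosl1 rose by 0.16 (SE 0.0483, adjusted p = 0.0185). Its call was lost without the second control library (0.13, adjusted p = 0.0558), without the second Runx1KO library (0.14, adjusted p = 0.0659) and without the third (0.15, adjusted p = 0.0662). The median change of the 8 was 0.77, against -0.06 over all genes tested. Batf3 did not reach 1 TPM in enough libraries to be tested.

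The 6-library table gave larger changes for the same libraries. In it Fos rose by 2.27, Fosb by 2.21, Atf3 by 1.70 and Jund by 0.88, and Jun at 1.10 joined the genes past 2-fold. Fos had 0.591 to 0.607 of its 9-library value there in control but 0.794 to 0.800 in Runx1KO, whereas Fosl1 had 0.616 to 0.629 and 0.632 to 0.636. The sizes of the Runx1KO changes therefore depend on the table, while each direction was the same in both, and the cause of the difference was not tested.

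Loss of Zeb1 and Zeb2 was compared with the same 3 control libraries, so the values below share their controls with those above. Of the 9 members, all tested among 12974 genes, 3 were higher past 2-fold and 0 lower, against 7.5% and 7.28% of all genes. Atf3 rose by 1.28 (SE 0.0324, adjusted p = 8.58e-08, 2.43-fold), Fosl1 by 1.22 (SE 0.0365, adjusted p = 1.74e-07, 2.33-fold) and Fosb by 1.01 (SE 0.0467, adjusted p = 1.41e-06, 2.01-fold). Fosb sat at the 2-fold limit and lost that call without the first or the third control library or the second ZebDKO library, which left 2 members past it. Fos rose by 0.87 (SE 0.0288, adjusted p = 2.78e-07) and Junb by 0.91 (SE 0.0342, adjusted p = 5.22e-07), both short of 2-fold.

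By adjusted p alone, 6 of the 9 were higher and 1 lower, against 26.9% higher and 52.5% lower of all genes. The libraries did not overlap for 7 of the 9, against 27.7% of genes that were higher throughout and 53.3% that were lower. Batf3 was higher by 0.81 (SE 0.139, adjusted p = 0.00105), from its very low level. It reached 1 TPM in the ZebDKO libraries only and so passed the filter through the group where it is high. Its direction was thus set by the filter, and its part in these counts is no support. Jun was the member that fell, by 0.71 on the log2 scale (SE 0.0296, adjusted p = 8.80e-07). Fosl2 changed by -0.04 (95% interval -0.15 to 0.08, adjusted p = 0.475) and Jund by 0.06 (95% interval -0.04 to 0.16, adjusted p = 0.216), neither past the test. The median of the 9 was 0.87, against -0.18 over all genes.

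That general shift matters for the small changes. Scaling the libraries by the median of their gene ratios moved the median over all genes by 0.185 in ZebDKO against control and by -0.150 in Runx1KO against ZebDKO. Relative to the median of all genes, the ZebDKO changes were 1.05 for Fos, 1.19 for Fosb, 1.40 for Fosl1, 0.14 for Fosl2, -0.53 for Jun, 1.10 for Junb, 0.25 for Jund, 1.47 for Atf3 and 0.998 for Batf3. Under that scaling 5 members were past 2-fold, with Fos at 1.06 and Junb at 1.11 added, whereas under quantile normalization 2 were, with Fosb at 0.96 left out. Among all genes 1181 of 12925 were higher past 2-fold and 664 lower under median-ratio scaling. Under quantile normalization these were 1035 and 775 of 12974. The share of higher genes among all genes past 2-fold was 50.8% as reported, 64.0% under median-ratio scaling and 57.2% under quantile normalization. Jun was lower under each scaling tried, at -0.51 under the median ratio and -0.80 under quantile normalization.

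The knockouts were then set against each other without the controls, to test whether the AP-1 genes differ between them. Past 2-fold, 1 of the 9 members was higher in Runx1KO and 3 were lower, against 9.2% and 6.59% of the 13071 genes tested. Jun was higher in Runx1KO by 1.58 (SE 0.0242, adjusted p = 1.59e-08). Junb was lower by 1.16 (log2 change -1.16, SE 0.0369, adjusted p = 2.34e-07) and Fosl1 by 1.06 (log2 change -1.06, SE 0.0402, adjusted p = 5.05e-07). Batf3 differed by -1.07 (SE 0.171, adjusted p = 0.000738) at levels of 2.0 TPM and below. It passed the filter only through ZebDKO, so its direction was set by the filter and its part in these counts is no support. Fos was higher in Runx1KO by 0.995 (SE 0.0270, adjusted p = 1.25e-07), at the 2-fold limit.

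By adjusted p alone 5 members were higher in Runx1KO and 4 lower, against 50.2% and 29.8% of all genes. None of the 9 overlapped between the knockouts, with 5 higher and 4 lower, against 51% and 30.7% of all genes. Fosb was higher by 0.81 (adjusted p = 2.07e-06) and Jund by 0.60 (adjusted p = 3.45e-06), and Fosl2 differed by -0.35 (adjusted p = 0.000201). Atf3 was higher by 0.14 (SE 0.0278, adjusted p = 0.00197), and under median-ratio scaling its difference was -0.0137 (adjusted p = 0.682), so its direction between the knockouts depends on the scaling. The median of the 9 was 0.14, close to the 0.15 of all genes. Of all genes past 2-fold, 58.3% were higher in Runx1KO as reported, 46.4% under median-ratio scaling and 47.6% under quantile normalization.

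**Figure D2:**
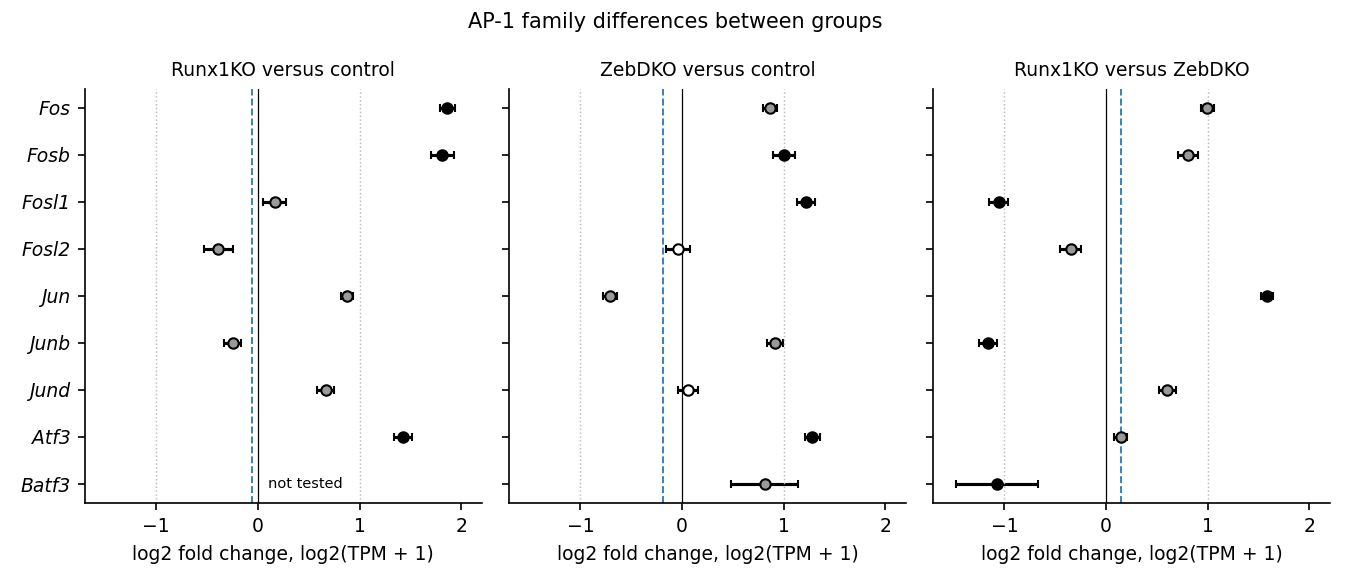
Change of each AP-1 gene on the log2 scale (horizontal) in Runx1KO against control, ZebDKO against control and Runx1KO against ZebDKO; points are limma estimates and bars are 95% intervals. Fos stands at 1.86 and 0.87 against control, Jun at 0.87 and -0.71, and Junb at -0.25 and 0.91.

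The make-up of the AP-1 transcripts therefore differed between the knockouts, although their summed level was higher than control in both. Junb was 43.3% of the summed TPM in control, 24.2% in Runx1KO and 48.0% in ZebDKO, and 49.0% and 23.3% of it in control and Runx1KO of the 6-library table. Fos and Fosb were 7.24% and 3.79% in control, 17.5% and 8.87% in Runx1KO, and 7.77% and 4.48% in ZebDKO. Fosl1 was 11.8%, 8.76% and 16.1% in the same order, and Jun was 12.5%, 15.3% and 4.49%.

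Ratios within a library do not depend on how the libraries were scaled. The ratio of Fos and Fosb to Fosl1 and Fosl2 was 0.655 ± 0.0491 in control, 2.33 ± 0.0990 in Runx1KO and 0.644 ± 0.0194 in ZebDKO (SD, n = 3), so control and ZebDKO overlapped and Runx1KO stood apart. In the 6-library table it was 0.866 ± 0.0808 in control and 3.96 ± 0.172 in Runx1KO, a wider gap. The ratio of Jun to Junb was 0.289 ± 0.00203 in control, 0.631 ± 0.0189 in Runx1KO and 0.0937 ± 0.00341 in ZebDKO, 3 levels without overlap, and in the 6-library table it was 0.1999 ± 0.00437 in control and 0.556 ± 0.0255 in Runx1KO. The 4 Fos genes summed to 0.433 ± 0.00163 of the 3 Jun genes in control, 0.779 ± 0.0286 in Runx1KO and 0.542 ± 0.0203 in ZebDKO, and in the 6-library table to 0.307 ± 0.00885 in control and 0.729 ± 0.0404 in Runx1KO. Each of these ratios was thus higher in Runx1KO than in control in both tables, while its size depends on the table. An exact permutation test of 3 against 3 libraries cannot go below p = 0.10, so these ratios are given as values.

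**Figure D3:**
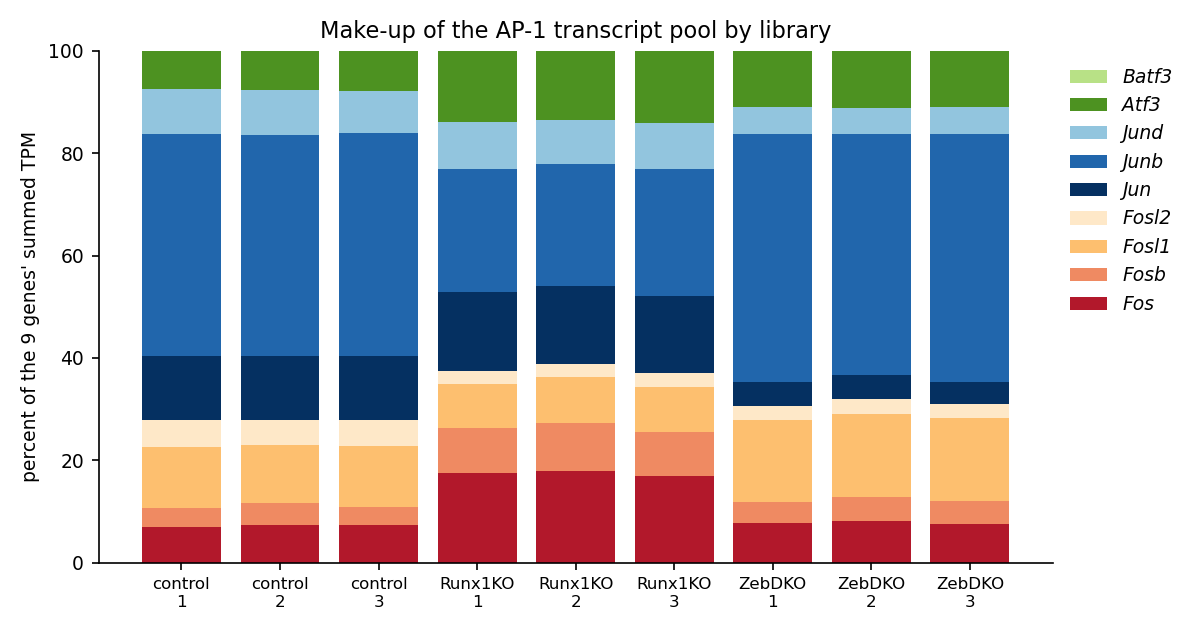
Share of each AP-1 gene in the summed TPM of the 9 genes (vertical, percent) in every library of control, Runx1KO and ZebDKO cells. Junb takes 43.3%, 24.2% and 48.0% in the mean of each group, and Fos and Fosb widen in Runx1KO.

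Across the 9 libraries, the members with the most similar pattern were Fos and Fosb (Pearson r of log2(TPM + 1) = 0.993) and Fosl1 and Junb (r = 0.944), while Jun and Junb ran opposite (r = -0.924). With 3 groups these values mostly restate the group means. Among 13374 genes, those most alike Fos were Padi4, Gas7, Eif1, Rabggta and 2010204K13Rik, and those most alike Fosb were Mafg, Tmem252, Cdyl2, Dock8 and Plat. Fosl1 was followed most closely by Ccdc85b (r = 0.9998), its overlapping neighbour, then by Flcn, Bcar1, Zglp1 and Usp10. Among the genes most like Jun were Spata7, Gm15127, St6galnac2 and Zc3h14, and Junb was most like Tnip1, 9530052E02Rik, Mapkapk3, Cxcl2 and Rasgrp3. Atf3 was most like the keratin gene Krt8, then Fam110c, Trpv4, Cutal and Serpinb5. Batf3 was most like Tax1bp3 (r = 0.968), at its low level.

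Other immediate-early genes were counted to see how far the rise went beyond AP-1. Of 25 tested in Runx1KO against control, 18 were higher and 6 lower by adjusted p, with a median of 0.59, where 30.4% of all genes were higher and 40.1% lower. The most changed were Egr3, a zinc finger factor, at -1.66 (6.87 ± 0.551 against 23.9 ± 2.35 TPM in control, adjusted p = 3.12e-06), the phosphatase genes Dusp5 at 1.57 (466 ± 29.7 against 156 ± 8.96, adjusted p = 6.53e-07) and Dusp6 at 1.48 (373 ± 4.07 against 133 ± 7.63, adjusted p = 1.77e-07), and Zfp36, which destabilises short-lived mRNAs, at 1.43 (1105 ± 28.1 against 411 ± 35.3, adjusted p = 1.14e-06). The other 5 that were lower by adjusted p lay between -0.22 (Trib1) and -0.88 (Nr4a1). In ZebDKO against control 19 of 26 were higher and 4 lower, with a median of 0.79, where 26.9% of all genes were higher and 52.5% lower. Myc rose by 2.18 (184 ± 4.30 against 39.9 ± 1.10 TPM, adjusted p = 1.70e-08), Gadd45b by 1.65 (adjusted p = 3.04e-07), Csrnp1 by 1.40 (adjusted p = 5.66e-08) and the kinase gene Sik1 by 1.30 (adjusted p = 5.03e-08). Between the knockouts 10 were higher in Runx1KO and 14 lower, against 50.2% and 29.8% of all genes, with a median of -0.14 and with Gadd45b at -2.45, Myc at -1.80, Dusp6 at 1.56 and Nr4a1 at -1.51.

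Textbook AP-1 target genes were counted in the same way. In Runx1KO against control 5 of 19 tested were higher and 11 lower, with a median of -0.35, where 30.4% of all genes were higher and 40.1% lower, so the higher share was near that of all genes. Ptgs2, the inducible cyclooxygenase, fell by 4.39 (3.77 ± 0.473 against 98.9 ± 5.22 TPM, adjusted p = 2.12e-08), the metallothionein gene Mt2 by 2.93 (144 ± 19.7 against 1098 ± 18.4, adjusted p = 2.14e-07) and the urokinase gene Plau by 2.24 (0.1 ± 0.1 against 4.27 ± 1.16, adjusted p = 2.25e-05). Nqo1, a quinone reductase also under other stress factors, rose by 3.29 (219 ± 20.5 against 21.4 ± 0.462, adjusted p = 3.55e-08). In ZebDKO against control 13 of 19 were higher and 5 lower, with a median of 0.52, where 26.9% of all genes were higher and 52.5% lower. Mmp10, a matrix protease, rose by 1.72 (adjusted p = 2.00e-05) and the chemokine gene Ccl2 by 1.56 (adjusted p = 4.04e-06). The growth factor gene Hbegf rose by 1.14 (adjusted p = 6.40e-07). In Runx1KO against control Hbegf also rose, by 1.78 (adjusted p = 7.33e-08). Mmp10 stood at -1.40 there (adjusted p = 0.000151), and Ccl2 did not pass (0.06, adjusted p = 0.633). Tested directly, 3 of the 19 were higher in Runx1KO than in ZebDKO and 15 lower, with a median of -0.89, where 50.2% of all genes were higher and 29.8% lower. Ptgs2 stood at -4.53, Plau at -3.30 and Nqo1 at 3.0 in that comparison, and Mmp10 was listed at 0 in every Runx1KO library against 7.7 ± 0.458 TPM in ZebDKO.

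Of the other bZIP genes that can pair with or act beside AP-1, 7 of 12 tested were higher and 3 lower in Runx1KO against control (median 0.15), where 30.4% of all genes were higher and 40.1% lower. Maf fell by 1.24 to 14.8 ± 1.17 TPM (adjusted p = 5.96e-06). In ZebDKO against control 6 of 13 were higher and 3 lower (median 0.07), among them Maff at 1.97 (110 ± 2.96 against 27.2 ± 2.45 TPM), Batf at 1.82 and Mafk at 1.38 (600.3 ± 8.65 against 230.0 ± 2.85). Between the knockouts 4 were higher and 4 lower in Runx1KO, with Maff at -1.47 and with Batf listed at 0 in every Runx1KO library against 4.23 ± 0.874 TPM in ZebDKO. The kinases and serum response factors that act upstream of AP-1 were counted last. In Runx1KO 8 of 24 were higher and 10 lower than control (median -0.07), and in ZebDKO 5 were higher and 17 lower (median -0.23), with 0 past 2-fold in either. The shares over all genes were 30.4% higher and 40.1% lower in Runx1KO and 26.9% and 52.5% in ZebDKO, so the Runx1KO counts were near those of all genes. Between the knockouts 16 of 24 were higher in Runx1KO and 4 lower (median 0.33, with 50.2% and 29.8% of all genes), with Map2k6 at 1.17 and Elk4 at 1.08. Median-ratio scaling gave 8 upstream genes higher and 7 lower in Runx1KO, and 6 higher and 10 lower in ZebDKO, so which direction held more of them in Runx1KO depends on the scaling. The median of each of these 4 lists had the same sign under median-ratio scaling and quantile normalization in every comparison.

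Among the marker lists, 6 of 6 tested epithelial genes were higher in Runx1KO than in control and 5 of 5 in ZebDKO, and 5 of 7 were higher in Runx1KO than in ZebDKO with 2 lower. Of the 8 epithelial genes only 1 reached 1 TPM in every control library. The others could pass the filter against control only with knockout libraries, so these counts against control were largely set by the filter. Epcam and Cdh1 were too low to be tested in Runx1KO against control. Of 8 mesenchyme genes 2 were higher and 4 lower in Runx1KO, 2 higher and 5 lower in ZebDKO, and 3 higher and 4 lower between the knockouts. Over all genes 30.4% were higher and 40.1% lower in Runx1KO, and 26.9% and 52.5% in ZebDKO. Between the knockouts these shares were 50.2% and 29.8%. The mesenchyme counts against control were thus near those of all genes. Of the immune and the endothelial list 1 gene each was tested. The immune gene Cd68 did not pass in Runx1KO against control (-0.06, adjusted p = 0.613), was higher in ZebDKO by 0.29 (adjusted p = 0.0349) and lower in Runx1KO than in ZebDKO (-0.35, adjusted p = 0.0107). The endothelial gene Cdh5 was lower in Runx1KO than in both other groups, at 1.13 ± 0.115 TPM, and did not pass between ZebDKO and control.

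The chromatin data ask where open regions and Runx binding lie around the AP-1 genes. The authors deposited ATAC-seq peaks of control and Runx1KO cells as dependent peaks, less open in Runx1KO, induced peaks, more open there, and independent peaks, and by the values in these lists the classes part at a 2-fold change. They called the ChIP-seq peaks on the pooled reads of the replicates, so a peak's fold enrichment over the local background has no error. A peak was given to the gene with the nearest protein-coding start within 100 kb on mm9. The 9 genes received 47 ATAC-seq peaks, 34 independent, 3 dependent and 10 induced. At least 1 dependent peak was found at 3 of the 9 and at least 1 induced peak at 6, against 23.8% and 29.1% of 10708 tested genes. Runx1 ChIP-seq peaks of control cells were given to 6 of the 9, against 34.1% of genes. Runx2 peaks were given to 8 in control and 9 in Runx1KO, against 60.05% and 60.9%. With 9 genes these counts carry no test, and genes with wide flanks collect more peaks.

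Fos (chr12:86814840-86818223, plus strand) had 8 independent and 3 induced ATAC-seq peaks, the most of the 9, and 4 Runx1 peaks. A Runx1 peak of 5.40-fold enrichment covered its start (chr12:86814657-86814995), and another of 7.01-fold lay at -1.4 kb (chr12:86813264-86813543), where Runx2 stood at 6.41-fold in control and 6.37-fold in Runx1KO. A region at 23.9 kb carried Runx1 at 6.06-fold. The induced peaks, at -43.4, -37.5 and -21.8 kb, held neither an AP-1 nor a Runx match. Runx2 peaks given to Fos numbered 10 in control and 5 in Runx1KO. The stretch at -1.4 kb is shown because it lies in the strongest Runx1 peak of Fos and holds its Runx match (TGTGGT or ACCACA, in capitals as in each mm9 sequence below, plus strand, with AP-1 matches TGACTCA or TGAGTCA also in capitals).
Fos -1.4 kb, chr12:86813294-86813379: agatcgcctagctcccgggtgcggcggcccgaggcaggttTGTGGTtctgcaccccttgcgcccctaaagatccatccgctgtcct

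Fosb (chr7:19888070-19895394, minus strand) had 7 independent peaks and none that changed class. The peak at -6.9 kb (chr7:19902051-19902564) held 2 AP-1 and 2 Runx matches and overlapped a Runx2 peak in control that was not called in Runx1KO. A Runx1 peak of 4.11-fold lay at -10.1 kb, with Runx2 there in both. Fosl2 (chr5:32438845-32460204, plus strand) had an independent peak at -0.6 kb with Runx2 in both cell types, an induced peak at 46.9 kb and a Runx1 peak of 4.08-fold at 30.9 kb. The Fosb stretch is shown because AP-1 and Runx matches sit together in it.
Fosb -6.9 kb, chr7:19902053-19902208: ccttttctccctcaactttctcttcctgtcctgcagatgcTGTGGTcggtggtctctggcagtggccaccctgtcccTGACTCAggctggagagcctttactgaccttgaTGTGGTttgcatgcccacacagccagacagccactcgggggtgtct

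Fosl1 (chr19:5447703-5455945, plus strand) had the strongest Runx1 peak of the 9, at 10.2-fold against a median of 4.45-fold over the Runx1 list. It lay in a dependent ATAC-seq peak at -2.7 kb (chr19:5444598-5445472), and Runx2 bound there at 7.91-fold in control and 7.03-fold in Runx1KO. A second Runx1 peak of 3.33-fold lay at its start. The transcript level of Fosl1 was little changed in Runx1KO, at 0.16 on the log2 scale. The Runx match shown lies inside both Runx2 peaks and beside the Runx1 peak (chr19:5444915-5445298).
Fosl1 -2.7 kb, chr19:5444750-5444835: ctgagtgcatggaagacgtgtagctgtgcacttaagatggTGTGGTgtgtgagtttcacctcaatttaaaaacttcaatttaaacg

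Jun (chr4:94715725-94718913, minus strand) had 5 independent and 3 induced peaks and no Runx1 peak. Runx2 was called there in Runx1KO only, at 0.6 kb with 3.73-fold. Of the induced peaks, those at -29.8 and -91.5 kb held 1 AP-1 match each and that at -41.7 kb held none. Both are shown as the AP-1 matches near Jun in peaks more open in Runx1KO.
Jun -29.8 kb, chr4:94748504-94748756: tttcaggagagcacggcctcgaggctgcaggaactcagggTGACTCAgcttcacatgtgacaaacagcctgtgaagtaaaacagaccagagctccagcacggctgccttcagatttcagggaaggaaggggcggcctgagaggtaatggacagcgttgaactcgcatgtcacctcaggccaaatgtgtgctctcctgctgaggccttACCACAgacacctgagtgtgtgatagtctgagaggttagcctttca
Jun -91.5 kb, chr4:94810451-94810537: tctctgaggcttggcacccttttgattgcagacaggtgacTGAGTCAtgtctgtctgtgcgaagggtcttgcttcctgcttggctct

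Junb (chr8:87500811-87502617, minus strand) had a dependent ATAC-seq peak at -2.5 kb (chr8:87504940-87505304). That peak held an AP-1 match and a Runx match 1 base apart and overlapped no Runx peak. Junb had no Runx1 peak, and Runx2 peaks numbered 2 in control and 3 in Runx1KO. Jund (chr8:73221638-73224515, plus strand) had a Runx1 peak of 4.89-fold (chr8:73222456-73222716) that held a CRE match, TGACGTCA. That peak lay at -0.3 kb from the inner of the 2 coding starts of Jund, within the gene, with its middle in an annotated UTR. An induced ATAC-seq peak of Jund lay at -9.9 kb. The Junb stretch is shown for its adjoining matches.
Junb -2.5 kb, chr8:87505173-87505266: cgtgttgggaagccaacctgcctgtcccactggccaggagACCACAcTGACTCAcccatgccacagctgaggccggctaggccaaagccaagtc

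Atf3 (chr1:192994175-193007219, minus strand) had a dependent peak at -47.3 kb (chr1:193054148-193054847) with 1 AP-1 and 4 Runx matches. Runx1 stood there at 3.79-fold and Runx2 at 3.66-fold in control, and no Runx2 peak was called there in Runx1KO. An induced peak lay at -21.6 kb and a Runx1 peak of 4.09-fold at the start. Batf3 (chr1:192922293-192932822, plus strand), the neighbour of Atf3, had an induced peak at -5.1 kb (chr1:192916935-192917396) with 2 AP-1 matches and no Runx1 peak. The Atf3 stretch is shown for its AP-1 and Runx matches in a peak that changed class.
Atf3 -47.3 kb, chr1:193054416-193054690: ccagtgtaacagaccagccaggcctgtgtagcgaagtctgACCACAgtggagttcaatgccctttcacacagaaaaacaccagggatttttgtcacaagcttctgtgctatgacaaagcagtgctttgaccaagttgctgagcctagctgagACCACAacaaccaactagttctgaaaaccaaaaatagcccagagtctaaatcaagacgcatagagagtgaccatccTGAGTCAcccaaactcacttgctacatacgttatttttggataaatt

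The promoters were read from RefSeq on GRCm38.p6, as the 250 bases before each start, and 8 of the 9 genes had an entry. None of the 8 held the AP-1 consensus, the CRE TGACGTCA or a Runx match, which 4.46%, 1.55% and 14.05% of 32851 promoters held on either strand. A single stretch was read for each of the 8, while Jun and Jund have 2 coding starts each in the mm9 annotation. The CRE match in the Jund peak at -0.3 kb, measured from the inner start, was not in the Jund stretch. TGACGT, the shorter core of the CRE and contained in it, was in the promoters of Fos and Atf3 and in 6.47% of all. The variant TGACATCA was in that of Jun and in 2.93% of all, and the TATA box TATAAA in that of Fos and in 12.4%. The Fos and Jun promoters are shown because both genes are known to be switched on through such elements, with these matches in capitals.
Fos promoter: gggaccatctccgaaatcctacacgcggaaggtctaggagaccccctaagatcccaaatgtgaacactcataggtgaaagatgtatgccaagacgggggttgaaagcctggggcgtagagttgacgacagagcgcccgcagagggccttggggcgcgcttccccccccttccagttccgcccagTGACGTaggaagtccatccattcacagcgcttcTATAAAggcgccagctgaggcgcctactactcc
Jun promoter: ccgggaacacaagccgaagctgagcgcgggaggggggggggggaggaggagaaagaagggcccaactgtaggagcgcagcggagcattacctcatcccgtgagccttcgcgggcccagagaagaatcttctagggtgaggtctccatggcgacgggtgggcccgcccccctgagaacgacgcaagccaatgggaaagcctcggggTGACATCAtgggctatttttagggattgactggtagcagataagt

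The AP-1 consensus was also counted over all ATAC-seq peaks, as the place where AP-1 proteins would bind. It was most frequent at the middle of the peaks. Within 50 bases of the middle there were 33.2 matches per 1000 independent peaks in each 25-base bin, 39.0 in dependent and 46.5 in induced peaks, against 4.41, 4.64 and 5.07 beyond 750 bases. At least 2 matches were held by 7.19% of 37481 independent peaks (95% Wilson interval 6.93 to 7.46), 9.39% of 8741 dependent peaks (8.80 to 10.0) and 8.995% of 9427 induced peaks (8.43 to 9.59). An AP-1 and a Runx match together were in 14.3% of independent peaks (13.9 to 14.6), 25.2% of dependent peaks (24.3 to 26.1) and 16.7% of induced peaks (15.9 to 17.5). The intervals cover counting error only, and peaks of one genome are not replicates.

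Windows of the same width 2000 bases away held the AP-1 consensus in 12.1% of independent peaks (95% Wilson interval 11.8 to 12.4), 12.02% of dependent (11.4 to 12.7) and 10.9% of induced (10.3 to 11.6). Windows were as wide as their peaks, which averaged 726, 671 and 584 bases in the same order. A Runx match was in 38.5% of independent, 54.5% of dependent and 35.4% of induced peaks. It was in 43.6%, 42.0% and 38.9% of their windows, so a Runx match alone was common outside peaks too. AP-1 and Runx matches together were not counted in the windows. The CRE was in 2.15%, 0.904% and 1.05% of peaks in the same order, so independent peaks had more of it and fewer AP-1 matches. When the search was kept to 200 bases around the middle, the AP-1 share was 18.6% of independent, 25.5% of dependent and 27.1% of induced peaks. With a longer match, ATGACTCA, it was 10.3%, 15.8% and 11.7%. The order of dependent and induced peaks thus changed with the definition, while independent peaks were lowest under both. GC content averaged 55.4%, 49.97% and 52.0% of bases in the 3 classes, and its part in these shares was not tested.

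**Figure D4:**
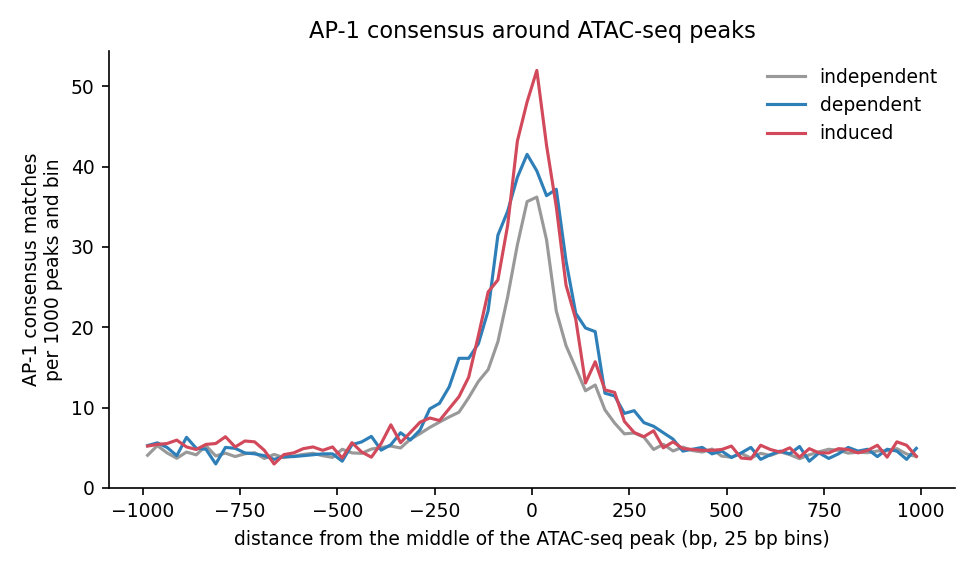
AP-1 consensus matches per 1000 peaks in 25-base bins (vertical) by distance from the peak's middle (horizontal, bases) for independent, dependent and induced ATAC-seq peaks. All 3 classes peak at the middle, with 33.2, 39.0 and 46.5 matches within 50 bases.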

How the data were processed

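Reads were trimmed with Trim Galore, mapped to mm9 and counted on RefSeq genes with featureCounts 1.6.2 after duplicate removal, and the authors turned the counts into the deposited TPM values, which keep no depth. The authors called ATAC-seq and ChIP-seq peaks with MACS2, and the deposited ChIP-seq lists give a fold enrichment (ratio) and a −log10 q-value per peak. The log2 fold changes that the authors deposited with the ATAC-seq lists were not used beyond the class of each list. Of the deposited columns 0 were left unmapped.

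Members and gene lists were chosen with earlier results of these data known. Changes were tested with limma 3.58.1 (R 4.3.3, lmFit and eBayes with a variance trend) on log2(TPM + 1) over genes that reached 1 TPM in 3 or more of the 6 libraries compared, with Benjamini-Hochberg adjustment over all of them. A fold change on this scale understates that of low genes. Calls required an adjusted p under 0.05, with and without a log2 change over 1. The script was tested on simulated data. The lists covered other immediate-early genes, AP-1 targets, other bZIP genes, upstream kinases and serum response factors, and mesenchyme, epithelial, immune and endothelial markers, and up to 4 called genes with the largest change were named per list and comparison. Some genes these rules would name, and 1 sequence, are not reported here. Up to 5 genes most like a member were named by Pearson r where its group means differed by at least 1.

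Peaks were given to the nearest protein-coding start within 100 kb with pysam 0.24.0 on the mm9 genome, and motifs were exact matches on either strand. Alternatives were 2 pseudocounts (0.1 and 0.5), no filter or 5 TPM, median-ratio scaling, quantile normalization, a replicate block, 1 fit over 9 libraries, no variance trend, leaving out each library, the 6-library table, and other peak limits. The ratios between members were also taken from the 6-library table, an alternative chosen after seeing the data.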

Additional observations from a re-analysis of the deposited data

Results flagged for a closer look

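For all 9 AP-1 genes the knockouts differed from each other by a direct limma test, Runx1KO minus ZebDKO on the log2 scale, in which the shared controls take no part. The difference was 0.995 for Fos, 0.81 for Fosb, -1.06 for Fosl1, -0.35 for Fosl2, 1.58 for Jun, -1.16 for Junb, 0.60 for Jund, 0.14 for Atf3 and -1.07 for Batf3. Jun and Junb moved in opposite directions in each knockout. Batf3 rests on levels of 2.0 TPM and below and passed the filter only through ZebDKO, which set its direction. The Atf3 difference was close to the median of all genes, 0.15, and was -0.0137 (adjusted p = 0.682) under median-ratio scaling. By the direct test as reported 50.2% of all genes were higher in Runx1KO and 29.8% lower, so a difference between the knockouts is common in these libraries.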

How the results depend on the processing

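The 26 tested changes of the 9 AP-1 genes in 3 comparisons were recomputed to give 396 values under the alternatives. Of these, 388 kept direction and side of the threshold, an adjusted p of 0.05. The 2-fold limit took no part in that count. Median-ratio scaling put 5 members past 2-fold in ZebDKO against control where 3 were reported. Among all genes 1181 of 12925 were higher past 2-fold under it, where 973 of 12974 were reported. Median-ratio scaling also turned Fosl2 in ZebDKO to 0.16 (adjusted p = 0.0153) and Atf3 between the knockouts to -0.0137 (adjusted p = 0.682). It brought Jund in ZebDKO past the threshold at 0.26 (adjusted p = 0.00160). Quantile normalization turned Jund in ZebDKO to -0.0150 (adjusted p = 0.733). Leaving out 1 library at a time gave 3 to 3 members past 2-fold in Runx1KO against control, 2 to 3 in ZebDKO against control and 3 to 5 between the knockouts, and 7 to 8, 7 to 8 and 9 to 9 by adjusted p. Over all genes these fits put 1018 to 1041 of 13067 higher and 660 to 681 lower past 2-fold in Runx1KO against control. In ZebDKO against control they put 961 to 981 of 12974 higher and 930 to 993 lower. Between the knockouts 1175 to 1247 of 13071 were higher in Runx1KO and 847 to 879 lower. Shares of all genes by adjusted p were not taken for these fits. Fosl1 in Runx1KO lost its call in 3 of the fits without 1 library, and Fosl2 in ZebDKO gained 1 without the second control library (-0.09, adjusted p = 0.0374).

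Same-numbered libraries did not deviate together (r from -0.0495 to 0.0399), so the numbers do not pair them. With the replicate block 3, 3 and 4 members were past 2-fold in the 3 comparisons, as without it. Among all genes the block gave 1040 higher and 669 lower of 13067 in Runx1KO against control. It gave 978 and 945 of 12974 in ZebDKO against control, and 1208 and 863 of 13071 between the knockouts.

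The ATAC-seq peaks of the members that overlap a Runx1 peak numbered 9, and 0 when 50% of the peak had to be covered. Induced peaks given to the members numbered 10 within 100 kb, 9 within 50 kb and 6 within 20 kb of a start. TPM gives no read depth, so the counting error behind single values, and behind Batf3 most of all, is unknown.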
